A study of Homo sapiens with 6 samples.

Results

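The 9 genes described here encode the subunits of cAMP-dependent protein kinase (protein kinase A, PKA) and its small inhibitor proteins. They were chosen by symbol from the 35793 genes of the deposited table and comprise the regulatory subunits PRKAR1A, PRKAR1B, PRKAR2A and PRKAR2B, the catalytic subunits PRKACA and PRKACB, and the inhibitors PKIA, PKIB and PKIG. RNA was measured by sequencing in cardiomyocytes differentiated from WTC11, an established line of human induced pluripotent stem cells, and collected at day 15 of differentiation. One group was unedited WTC11 (Wildtype) and the other a WTC11 derivative carrying a homozygous knockout of STK25 made with CRISPR/Cas9 (STK25KO), with 3 biological replicates of each. No treatment was given to either group, and each genotype was represented by 1 line, so the edit and any other difference between the lines cannot be told apart. STK25 is a serine/threonine kinase of the STRIPAK complex.

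PKA is held inactive as a tetramer of paired regulatory and catalytic subunits. Binding of cAMP to the regulatory subunits releases the catalytic subunits, which in heart muscle phosphorylate calcium channels, phospholamban and troponin I downstream of adrenergic receptors. Type I regulatory subunits are largely soluble and type II subunits are largely tethered by A-kinase anchoring proteins, and PKI proteins occupy the active site of free catalytic subunits as pseudosubstrates and carry them out of the nucleus.

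All 9 genes were read in every library, the fewest reads being 212, for PRKACA in wild-type replicate 1. Values are normalized counts, that is reads divided by 1 factor per library. The libraries held from 22443904 to 53224112 reads. All 6 cardiomyocyte markers (TNNT2, ACTN2, MYH6, MYH7, NKX2-5 and RYR2) were present, and they summed to 467557 to 616922 normalized counts in wild-type and to 668798 to 739016 in knockout libraries. By the limma test 0 of the 6 were higher and 1 lower past the threshold: NKX2-5, a cardiac transcription factor, had 19414 to 23430 normalized counts in the wild type and 5869 to 6745 in the knockout. Short of the threshold, MYH6 was lower in every knockout library (91792 to 186498 in the wild type, 55128 to 69496.5 in the knockout). MYH7 (49595 to 136875, then 177105 to 291460) and ACTN2 (30452 to 64644, then 67930 to 135452) were higher in every one. TNNT2 and RYR2 overlapped. STK25, the targeted gene, had 8874, 6774 and 8710 normalized counts in wild-type replicates 1, 2 and 3 and 3906, 3434 and 3820 in the knockout replicates. Relative to the wild type the knockout was at -1.12 on the log2 scale (SE 0.19, limma adjusted p = 0.00903); leaving out wild-type replicate 1 put the adjusted p at 0.0609. Wild-type replicate 2 and knockout replicate 1 were set apart from the other 4 libraries on the second principal component, which carried 24.1% of the variance, so results are also given without them.

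Of the 9 genes, PKIB alone passed the test across all genes (limma, Benjamini-Hochberg adjusted p under 0.05), as did 12.8% of the 15536 genes tested, 5.97% higher and 6.79% lower in the knockout. The values of the 2 genotypes did not overlap for 4 of the 9: PKIB, PKIG and PRKAR1A were higher in every knockout library and PRKAR2B was lower in every one, whereas such separation was found in 33.4% of tested genes, 16.2% with the knockout higher and 17.2% with it lower. At an unadjusted p under 0.05 there were 4 of 9, against 27.5% of all genes. The median log2 fold change of the 9 was 0.35, beside 0.0052 for all genes tested. In these whole-culture libraries, fewer cells of a type and less RNA per cell cannot be told apart.

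**Figure D1:**
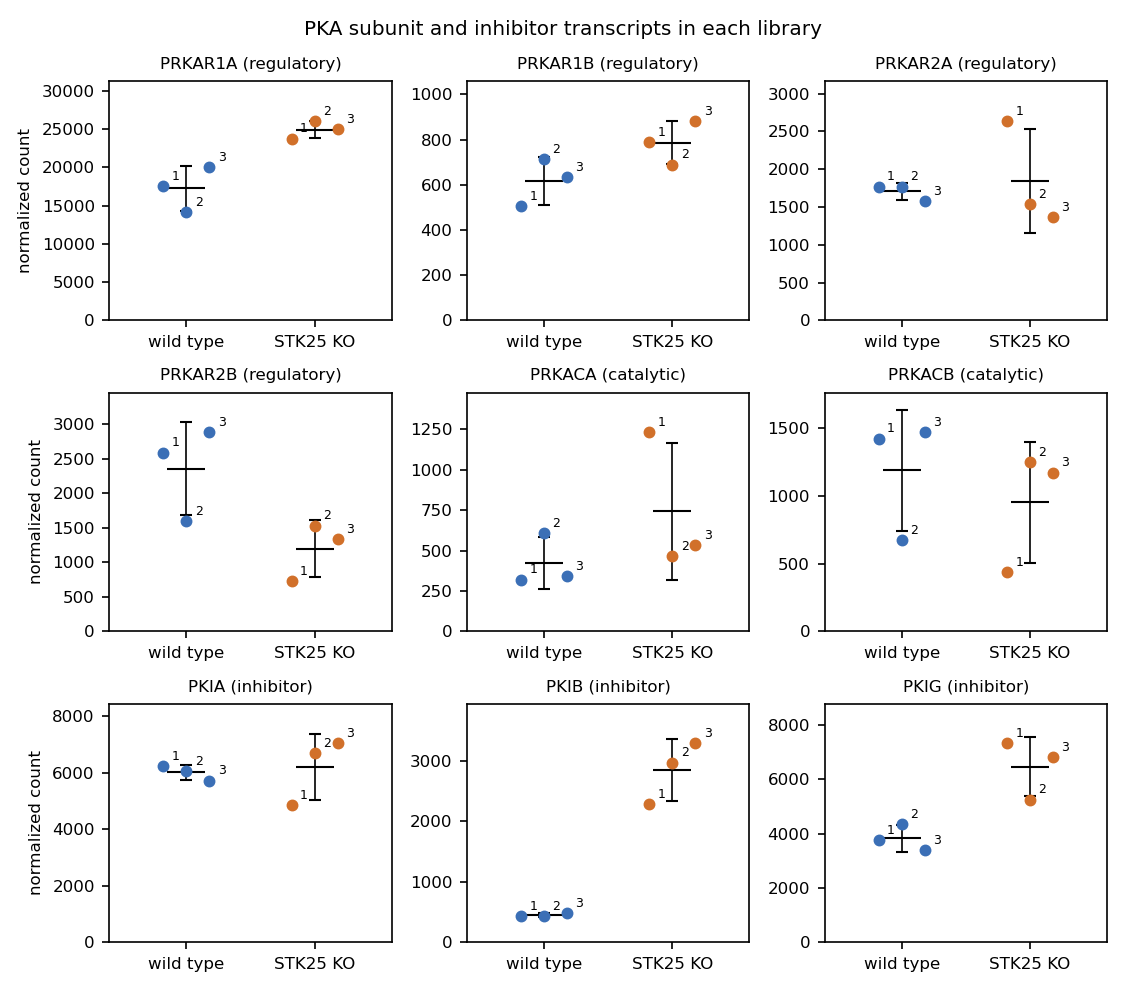
Normalized counts (vertical axes from 0) of the 9 PKA genes in each library, numbered by replicate, with the mean and SD of each genotype (n = 3) in black. PKIB sits between 430 and 482 in the wild type and between 2287 and 3288 in the knockout, and replicate 1 of the knockout lies apart from replicates 2 and 3 for PRKAR2A, PRKACA and PRKACB.

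Because PKIB was the gene that passed, and PRKAR1A the most abundant, stretches around their annotated starts are shown. RefSeq (GRCh38.p14) lists promoter windows, from 250 bases before to 50 after a start, for 8 of the 9 genes. PKIA was not matched. The windows were searched on both strands for TGACG, the core of the cAMP response element bound by CREB, whose full palindrome is TGACGTCA and holds the core on either strand. The first window of PKIB (chr6:122471671-122471970, plus strand) held 3 matches and the next (chr6:122610155-122610454, plus strand) held 1. A full palindrome was found among the 25 windows of these genes in PRKAR1A only, in windows that overlap each other, one of which is chr17:68512180-68512479 (plus strand). Matches are in capitals.
PKIB, first start: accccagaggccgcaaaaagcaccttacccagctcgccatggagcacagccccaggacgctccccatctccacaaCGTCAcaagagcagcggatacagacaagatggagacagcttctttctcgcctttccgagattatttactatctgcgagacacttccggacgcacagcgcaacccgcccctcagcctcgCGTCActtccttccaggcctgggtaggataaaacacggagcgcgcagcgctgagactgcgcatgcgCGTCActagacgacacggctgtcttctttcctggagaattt
PKIB, next start: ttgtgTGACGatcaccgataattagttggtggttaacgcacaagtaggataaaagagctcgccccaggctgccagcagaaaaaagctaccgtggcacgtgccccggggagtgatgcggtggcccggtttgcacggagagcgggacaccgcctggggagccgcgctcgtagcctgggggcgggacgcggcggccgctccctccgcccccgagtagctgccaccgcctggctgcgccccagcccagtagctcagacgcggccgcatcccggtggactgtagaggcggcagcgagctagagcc
PRKAR1A: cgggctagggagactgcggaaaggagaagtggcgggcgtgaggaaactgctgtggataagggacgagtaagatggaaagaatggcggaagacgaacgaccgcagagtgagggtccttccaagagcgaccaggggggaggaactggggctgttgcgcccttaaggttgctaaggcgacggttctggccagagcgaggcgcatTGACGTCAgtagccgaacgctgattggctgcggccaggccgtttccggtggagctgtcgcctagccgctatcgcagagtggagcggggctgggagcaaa
A match describes letters and not a bound site. Of all 35116 windows, 24.6% held the core on either strand and 1.85% the full palindrome, and of the 25 windows of these genes 11 held the core. Some windows of PRKAR1A and of PRKAR1B overlap and share a match, so the same letters are counted in more than 1 window. The third PKIB window held none. The gene totals do not show which start was used.

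The inhibitors held the largest difference. PKIB (ENSG00000135549.14, chromosome 6, 122471917 to 122726373 on GRCh38, plus strand) encodes the beta form of PKI. It had 430, 431 and 482 normalized counts in wild-type replicates 1, 2 and 3 and 2287, 2971 and 3288 in knockout replicates 1, 2 and 3. The lowest knockout library was thus far above the highest wild-type library. The mean rose from 448 ± 29.7 to 2849 ± 512 (SD, n = 3 each), a fold change of 6.28 with a 95% interval from 4.47 to 8.83 (limma; 2.65 on the log2 scale, SE 0.21, adjusted p = 0.000414). It passed in all 20 alternative analyses, with log2 fold changes from 2.37 to 2.80. By exact permutation of the genotype labels (two-sided, n = 3 each) p was 0.1, which 6 libraries cannot go below.

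PKIG (ENSG00000168734.13, chromosome 20, 44531785 to 44624247, plus strand) encodes the gamma form, which is broadly expressed. It had 3753, 4362 and 3388 normalized counts in the wild-type replicates and 7327, 5255 and 6809 in the knockout replicates. Every knockout value lay above every wild-type value, with knockout replicate 2 closest to them. The log2 fold change was 0.75 (SE 0.21, 95% interval 0.27 to 1.22) and the adjusted p of 0.0532 (limma) lay just over the threshold. It passed with DESeq2 (adjusted p = 0.0104), which called 20.7% of all genes, with a pseudocount of 10 (adjusted p = 0.0499) and in both analyses described below that deal with the libraries set apart, and over all 20 alternatives its adjusted p ran from 0.00545 to 0.217.

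PKIA (ENSG00000171033.12, chromosome 8, 78516139 to 78605267, plus strand) encodes the alpha form, the PKI best known from striated muscle. It had 6234, 6071 and 5726 normalized counts in the wild type and 4854, 6701 and 7042 in the knockout. The knockout libraries lay on both sides of the wild-type ones. The log2 fold change was 0.03 with a 95% interval from -0.44 to 0.50 (limma adjusted p = 0.954), and its sign turned with scaling: scaled to equal upper quartiles it was -0.021, to equal totals -0.26, and after quantile normalization -0.14.

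The inhibitors therefore differed in proportion to one another, a comparison that dividing a library by 1 factor cannot alter. Quantile normalization or a trend over transcript length within a library can alter it. The ratio of PKIB to PKIA normalized counts was 0.0691, 0.0710 and 0.0842 in the wild type and 0.471, 0.443 and 0.467 in the knockout. Within each genotype this ratio varied little, and knockout replicate 1, which stood apart for other genes, did not stand apart here. To compare levels between genes, normalized counts were divided by the median length of each gene's protein-coding transcripts in GENCODE 29. Per kilobase, PKIB made up 4.36% ± 0.60 of the 3 inhibitors in the wild type and 17.6% ± 2.53 in the knockout (SD, n = 3 each). PKIA went from 49.7% ± 2.36 to 32.7% ± 5.54, and PKIG had 46.0% ± 2.78 and 49.7% ± 8.06. With the longest transcript as the length, the PKIB share was 5.49% and 20.2%.

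None of the 4 regulatory subunits passed the test, and the genotypes did not overlap for PRKAR1A and PRKAR2B. PRKAR1A (ENSG00000108946.14, chromosome 17, 68511780 to 68551319, plus strand) encodes RI-alpha, the subunit whose loss raises PKA activity in Carney complex, a syndrome that includes cardiac myxomas. It had 17566, 14128 and 20002 normalized counts in the wild type and 23723, 25988 and 24938 in the knockout. Every knockout library was above every wild-type library, and the knockout values varied less (coefficient of variation 4.56% against 17.1%). Its difference was 0.54 on the log2 scale (SE 0.21, 95% interval 0.07 to 1.02, limma adjusted p = 0.131), so it did not pass. With equal totals it was 0.26 and with quantile normalization 0.25. The separation held for the deposited scaling and not for equal totals. PRKAR1A took 18663 of the 39197480 reads of knockout replicate 1. That is a smaller part than in wild-type replicate 1 (11630 of 22443904) or 3 (31356 of 53224112).

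PRKAR2B (ENSG00000005249.12, chromosome 7, 107044649 to 107161811, plus strand) encodes RII-beta, which is best known from brain and fat. It had 2589, 1601 and 2884 normalized counts in the wild type and 731, 1533 and 1333 in the knockout. The groups did not overlap, although wild-type replicate 2 lay close to knockout replicate 2. On the log2 scale the knockout stood at -1.0 (SE 0.34, 95% interval -1.80 to -0.20, limma adjusted p = 0.103). DESeq2 placed it past the threshold (adjusted p = 0.0411) and edgeR did not (adjusted p = 0.105).

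PRKAR2A (ENSG00000114302.15, chromosome 3, 48744597 to 48847846, minus strand) encodes RII-alpha, a partner of many anchoring proteins. It had 1769, 1770 and 1580 normalized counts in the wild type and 2634, 1537 and 1365 in the knockout. Knockout replicate 1 was the highest library and the other knockout libraries were the lowest. The log2 fold change of 0.05 (95% interval -0.57 to 0.68, limma adjusted p = 0.929) was -0.23 without knockout replicate 1 and also -0.23 with equal totals.

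PRKAR1B (ENSG00000188191.14, chromosome 7, 549197 to 727650, minus strand) encodes RI-beta, a mainly neuronal form. It had 504, 712 and 635 normalized counts in the wild type and 788, 689 and 881 in the knockout, and the groups overlapped. The log2 fold change was 0.35 (95% interval -0.18 to 0.89, limma adjusted p = 0.370). PRKAR1B lies at the end of the short arm of chromosome 7, where the 46 other tested genes within 5 Mb had a median log2 fold change of 0.65. Of these, 12 were higher and 1 lower past the threshold, beside 5.97% and 6.79% of all genes. The corresponding medians around the other 8 genes ran from -0.18 (PKIB) to 0.23 (PKIA).

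**Figure D2:**
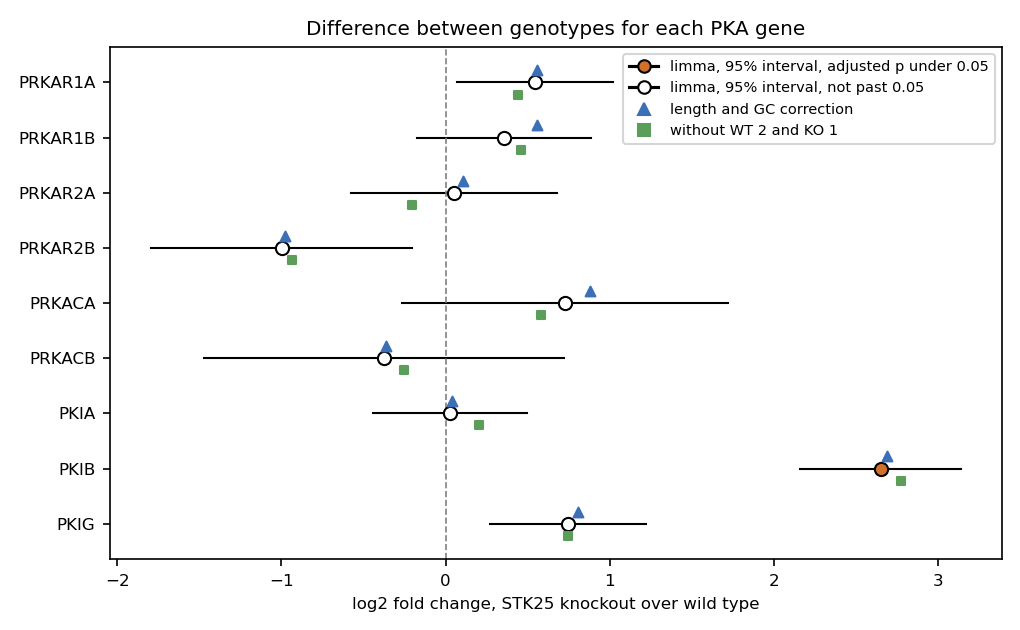
Log2 fold change (knockout over wild type, horizontal axis) of the 9 genes from limma with its 95% interval (circles, n = 3 each), after a correction for transcript length and GC content (triangles) and without wild-type replicate 2 and knockout replicate 1 (squares). PKIB lies at 2.65, with an interval that starts at 2.16, and PRKAR2B at -1.0. For PRKAR2A the square and the circle lie on opposite sides of 0.

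The ratio of type I to type II regulatory transcripts was higher in each knockout library than in any wild-type library. Per kilobase, the sum of PRKAR1A and PRKAR1B over the sum of PRKAR2A and PRKAR2B was 4.11, 4.34 and 4.62 in the wild type and 6.92, 8.51 and 9.40 in the knockout. The groups did not overlap, and the knockout mean was 1.90 times that of the wild type, or 2.11 times with the longest transcript as the length. The ratio is made from genes chosen with their values known and is given as a description. PRKAR1A made up 77.2% ± 1.43 of the regulatory level per kilobase in the wild type and 85.1% ± 1.58 in the knockout (SD, n = 3 each), and PRKAR2B 10.1% ± 1.55 and 3.96% ± 1.29.

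The catalytic subunits were the least reproducible of the 9 genes. PRKACA (ENSG00000072062.13, chromosome 19, 14091688 to 14118084, minus strand) encodes C-alpha, the main catalytic subunit of most tissues. It had 320, 609 and 344 normalized counts in the wild type and 1230, 465 and 533 in the knockout. Wild-type replicate 2 and knockout replicate 1 were each the highest of their genotype. The fitted difference was 0.73 (log2, 95% interval -0.27 to 1.72, limma adjusted p = 0.326), and 0.29 without knockout replicate 1.

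PRKACB (ENSG00000142875.19, chromosome 1, 84078062 to 84238498, plus strand) encodes C-beta, a closely related kinase with many splice forms. It had 1423, 671 and 1469 normalized counts in the wild type and 440, 1249 and 1172 in the knockout. Here the same libraries were the lowest of their genotype. The log2 fold change was -0.37 (95% interval -1.47 to 0.72, limma adjusted p = 0.674), and 0.11 without knockout replicate 1.

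The catalytic genes thus moved against each other among replicates of 1 genotype. The ratio of PRKACA to PRKACB was 0.225, 0.908 and 0.234 in the wild type and 2.80, 0.372 and 0.455 in the knockout. In replicates 1 and 3 of the wild type and 2 and 3 of the knockout it stayed between 0.225 and 0.455. PRKAR2A over PRKAR2B did likewise, with 1.11 in wild-type replicate 2 and 3.6 in knockout replicate 1, beside 0.683 and 0.548 in the other wild-type and 1.00 and 1.02 in the other knockout libraries.

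The same libraries differed from their replicates by transcript length over all genes. In the quartile of tested genes with the shortest transcripts, wild-type replicate 2 was above the mean of replicates 1 and 3 by a median of 0.515 (log2), and from the second to the longest quartile its median differences were -0.053, -0.312 and -0.263. For knockout replicate 1 against replicates 2 and 3 the medians of the 4 quartiles were 0.499, -0.187, -0.334 and -0.0832. Over quartiles of GC content they ran from -0.074 to 0.146 and from -0.138 to 0.165. The longest coding transcript has 2677 bases for PRKACA and 4513 for PRKACB, with 56.5% and 37.9% GC. By that length PRKACA belongs to the second quartile (2060 to 3300 bases), where both medians were below 0 while PRKACA itself was high in these libraries. By GC it belongs to the third, where the medians were -0.02 and 0.00993. The quartiles were set by longest transcripts. The median length of the coding transcripts of PRKACA, used for levels per kilobase, is 1127 bases. That length falls in the range of the shortest quartile (129 to 2060 bases), where both medians were above 0. The part of transcript length in the PRKACA values was not tested. PRKACB belongs to the third quartile by length (3300 to 5130 bases), where the medians, like PRKACB, were low.

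**Figure D3:**
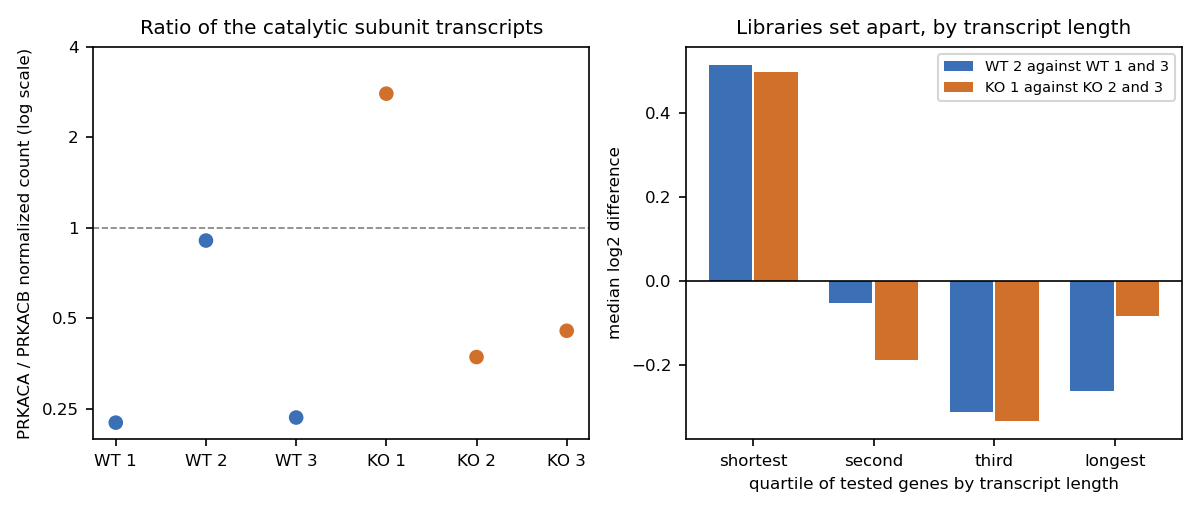
Left, ratio of PRKACA to PRKACB normalized counts in each library (log axis); wild-type replicate 2 (0.908) and knockout replicate 1 (2.80) exceed the other libraries of their genotype. Right, median log2 difference of those libraries from the other libraries of their genotype, in quartiles of the tested genes by transcript length; both are above 0 for the shortest transcripts and below 0 for the rest.

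Analyses that deal with these libraries changed the calls. Without wild-type replicate 2 and knockout replicate 1, PKIB, PKIG, PRKAR1A and PRKAR2B passed (limma adjusted p = 2.08e-05, 0.00799, 0.0260 and 0.00257), with log2 fold changes of 2.78, 0.75, 0.44 and -0.93. That fit had 2 libraries a genotype and called 28.9% of all genes. With each library less its own trend over length and GC content, the same 4 of the 9 genes passed (limma adjusted p = 0.000442, 0.00545, 0.0324 and 0.0190), with log2 fold changes of 2.69, 0.81, 0.55 and -0.98 and 19.8% of all genes called. PRKACA (adjusted p = 0.224) and PRKACB (adjusted p = 0.540) did not pass after that correction (limma).

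Levels of the 9 genes spanned a wide range. Per kilobase, PRKAR1A was the most abundant in both genotypes, at 4739 ± 812 normalized counts per kilobase in the wild type and 6843 ± 312 in the knockout (SD, n = 3 each). PKIA (3462 ± 149) and PKIG (3220 ± 413) followed in the wild type with overlapping libraries, and in the knockout PKIG (5427 ± 905) was above PKIA (3571 ± 678) in every library. The remaining 6 genes lay between 248 and 630 in the wild type, and each overlapped its neighbour in the order PRKAR2B, PRKAR2A, PRKACA, PKIB, PRKACB, PRKAR1B. In the knockout PKIB stood at 1926 ± 346, at rank 4 and separate from PKIA above and PRKACA below. With the longest transcript as the length PRKAR1A ranked first and PKIB at 4 in the knockout, PKIG was above PKIA in both genotypes, and PRKACA fell below PRKACB in the wild type. Summed per kilobase, regulatory over catalytic transcripts stood at 9.38 ± 1.80 in the wild type and 9.63 ± 2.72 in the knockout, which overlapped.

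**Figure D4:**
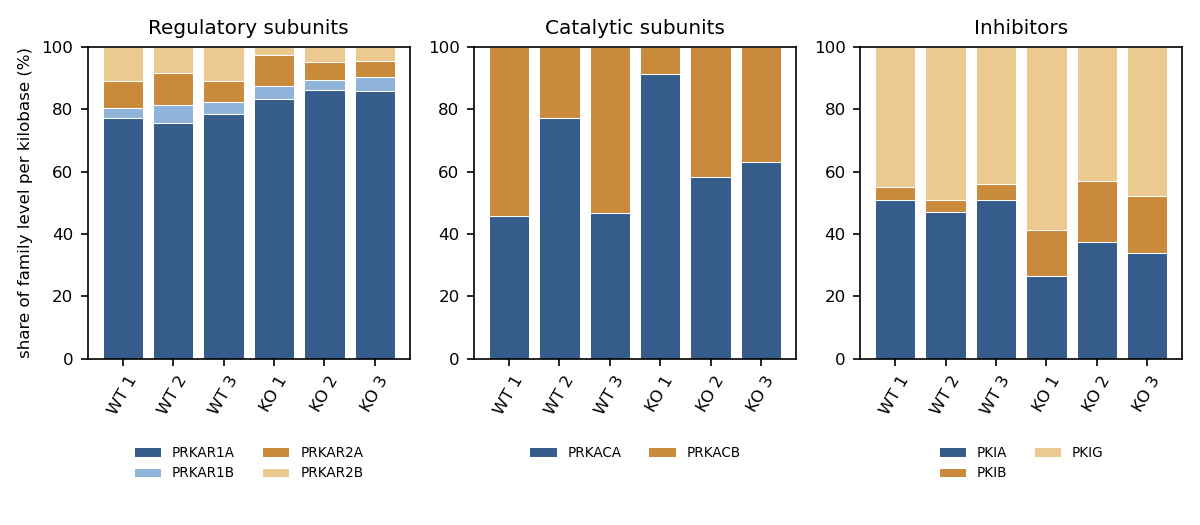
Share (%) of each gene in the summed level per kilobase of its family, in each library (WT, wild type; KO, STK25 knockout; numbers are replicates). PKIB takes 3.91% to 5.04% of the inhibitors in the wild type and 14.7% to 19.5% in the knockout, and PRKAR2B takes a smaller share of the regulatory subunits in every knockout library.

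Markers of other cell types were set beside the PKIB difference. Of the 4 smooth muscle markers (MYH11, CNN1, TAGLN and ACTA2) all 4 were higher past the threshold, and their sum was 77993 to 87796 normalized counts in wild-type and 486822 to 536050 in knockout libraries. The 4 epicardial markers summed to 99.7 to 184 and to 500 to 644, with 1 higher, and the 5 neural markers to 54.2 to 117 and to 443 to 827, with 3 of the 4 tested higher. The 4 epithelial markers summed to 76329 to 84053 and to 126509 to 165508, with 1 higher and 1 lower. Most of that sum was KRT8, which was higher in every knockout library (59281 to 70569 and 120287 to 159394). KRT19 was lower in every one (11276 to 15150 and 4761 to 5003), and EPCAM and CDH1 overlapped. Fibroblast and stromal sums overlapped (8608 to 17178 and 7520 to 15757, 2 of 5 higher and 0 lower), but their members moved in opposite directions. COL1A1 was lower in every knockout library (7131 to 14000.5 and 2969 to 6215), without passing the threshold. COL3A1 (321 to 1128 and 2302 to 6078), DCN (4.47 to 19.6 and 55.9 to 116) and LUM (225 to 340 and 423 to 507) were higher in every one. PDGFRA overlapped. Endothelial sums also overlapped (139 to 465 and 367 to 545, none of the 3 tested past the threshold, CDH5 at or under 3 reads in all libraries). Endoderm and liver markers summed to 1659 to 3003 and to 1169 to 1248, with 1 of 3 tested lower and FOXA2 listed at 0 in all libraries. Pluripotency markers summed to 329 to 418 and to 468 to 492, with 0 of the 3 tested past the threshold. The part of these markers in the PKIB result was not tested.

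The genes around PKA were counted in 6 lists of 74 genes, of which 68 were tested. Past the threshold were 12 of them (17.6%, against 12.8% of all genes), 4 higher and 8 lower, with a median log2 fold change of -0.09. Leaving out single libraries gave counts from 1 to 12: 1, 8 and 5 with wild-type replicate 1, 2 or 3 dropped, and 12, 6 and 4 with knockout replicate 1, 2 or 3 dropped. The number called among all 15536 genes moved as well, from 1982 with every library to 796, 1558 and 916 without wild-type replicate 1, 2 or 3 and to 2181, 1292 and 962 without knockout replicate 1, 2 or 3. With the replicate number as a block, 2 pathway genes and 5.14% of all genes passed.

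Input to the kinase was represented by receptors, G proteins and adenylyl cyclases. Of 7 tested receptors and G proteins, 1 was higher and 1 lower past the threshold, beside 5.97% and 6.79% of all genes. The higher was GNAL, an olfactory-type stimulatory G protein, with 356, 244 and 485 normalized counts in the wild type and 1004, 993 and 803 in the knockout (log2 fold change 1.41, limma adjusted p = 0.0197). Its genotypes did not overlap, and it missed the threshold with equal totals (adjusted p = 0.0717). Of 10 adenylyl cyclases, which make cAMP, 0 were higher and 2 lower. ADCY6, a main cardiac form, had 2965, 2066 and 2745, then 1664, 1146 and 1394 (-0.89, limma adjusted p = 0.0433), and ADCY8 was low throughout, at 41.1 to 52.3 and 0 to 8.92 (limma adjusted p = 0.0337).

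Among 14 tested phosphodiesterases that break down cAMP, 0 were higher and 3 lower past the threshold, beside 5.97% and 6.79% of all genes. The list median was -0.91. PDE4B had 49.8, 86.8 and 103 normalized counts in the wild type and 26.7, 16.7 and 15.1 in the knockout (log2 fold change -1.96, limma adjusted p = 0.0384). PDE1B ran from 175 to 234 and from 4.44 to 47.9 (limma adjusted p = 0.0183). PDE1C ran from 7.65 to 63.4 in the wild type and had at most 3 reads in any knockout library (limma adjusted p = 0.0425). The other 11 did not pass, and their log2 fold changes lay on both sides of 0.

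Downstream, 17 anchoring proteins, 7 other cAMP effectors and 13 cardiac substrates were tested. Of all genes, 5.97% were higher and 6.79% lower past the threshold. Among the anchors AKAP12 and SYNM rose and SPHKAP, an anchor that prefers type I regulatory subunits, fell. SPHKAP had 1155, 801 and 964 normalized counts in the wild type and 233, 261 and 190 in the knockout (-2.09 on the log2 scale, SE 0.25, limma adjusted p = 0.00225). It kept its call in all 20 alternatives. AKAP12 (0.90, limma adjusted p = 0.0160) and SYNM (1.11, limma adjusted p = 0.0195) missed the threshold with equal totals. POPDC2, a membrane protein that binds cAMP, had 9322, 10224 and 9456, then 32061, 20199 and 21172 (1.31, limma adjusted p = 0.0104). Among the substrates only PLN, phospholamban, passed, with 53745, 61557 and 51495, then 34273, 31287 and 32532 (-0.76, limma adjusted p = 0.0459). All 12 genes except SPHKAP were over the threshold in at least 1 of the 6 fits that left out 1 library, among them POPDC2 without wild-type replicate 1 or 3 (up to 0.0644), and PLN and PDE4B in 5 of the 6 fits (up to 0.176 and 0.155).

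**Figure D5:**
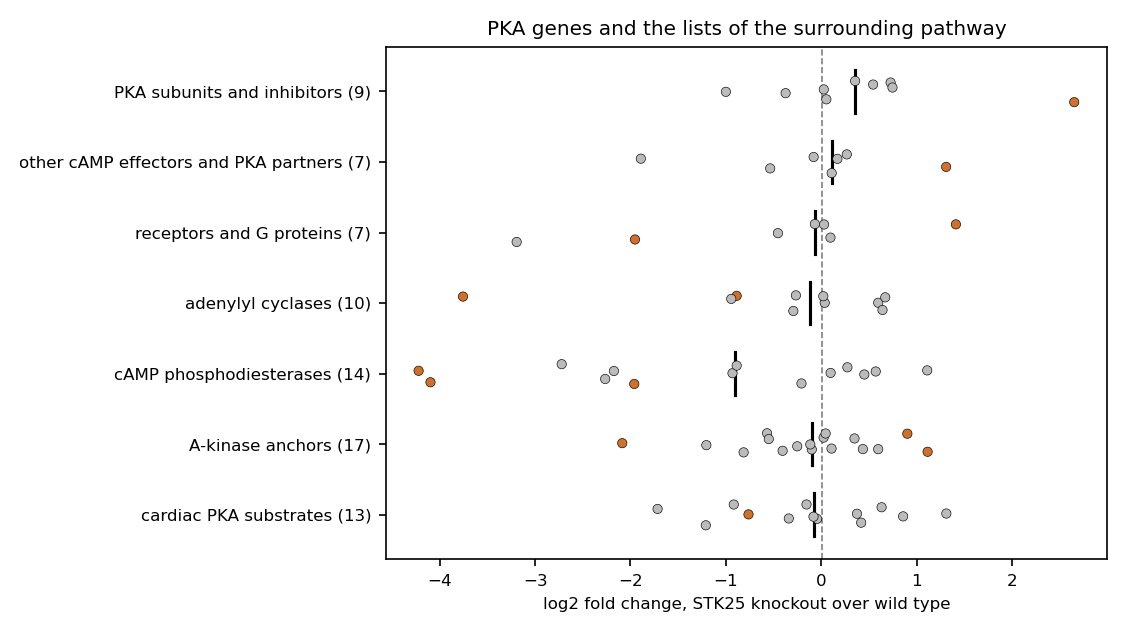
Log2 fold change (knockout over wild type) of each tested gene in the PKA group and the 6 surrounding lists, with the number tested in brackets; orange points have a limma adjusted p under 0.05, black bars are list medians and the dashed line is the median of all genes tested. PKIB is the orange point of the PKA group at 2.65, and the phosphodiesterase median is -0.91.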

How the data were processed

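RNA from 6 cultures was sequenced by the submitters; per the labels' protocols, column-purified RNA went through a Clontech Ultra Low cDNA synthesis and NexteraXT. Per the submitters' processing notes, bcl2fastq 2.19, kallisto 0.44.0, DESeq2 1.28.1 and GRCh38 were used, with no role or order given. The values are a signal that the authors deposited as normalized counts per gene symbol. In each column 100% of positive values were whole multiples of the smallest (tolerance 1e-06), so reads were recovered by division. Columns were matched to samples by the labels' library names, and 0 were unused.

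Genes with a mean of at least 10 were tested with limma 3.58.1 (R 4.3.3; eBayes with a trend, all 6 libraries, no covariate) on log2(value + 1), which understates changes of low genes, and adjusted by Benjamini-Hochberg over all genes. edgeR 4.0.16 and DESeq2 1.42.0 on recovered reads, other pseudocounts, filters, scalings and eBayes settings, a replicate block and leaving out libraries were alternatives. The analysis without 2 libraries and the length and GC correction (splines fitted per library; 97.7% of tested genes had a value) were added after the data were seen. Members and lists were chosen with earlier results of these data known. The genes named are STK25, the 9 members, list genes with an adjusted p under 0.05 (1 was counted with its list and is otherwise not reported here), the 5 profiles nearest to PKIB and its neighbours. Replicates differed by more than sampling noise (reduced chi-square 19.9 to 382 between libraries of 1 genotype). Positions and lengths are from GENCODE 29 on GRCh38, promoters from RefSeq. Whether counting used strand is not given in the sources used here. Reads from sequence shared by genes on opposite strands thus cannot be told apart. Such overlap was judged by whole gene spans and not by exons (FAM20A at PRKAR1A, DNAAF5 at PRKAR1B, ADA at PKIG). Plots used matplotlib 3.10.9 in Python 3.11.15.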

Additional observations from a re-analysis of the deposited data

How the results depend on the processing

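PKIB passed under every alternative run. The number of the 9 PKA genes past the threshold was 1 in each fit that left out 1 library and in the other alternatives except these: 2 with a pseudocount of 10, 3 with DESeq2, 4 with the length and GC correction and 4 without wild-type replicate 2 together with knockout replicate 1. Of all 15536 genes, 1982 (12.8%) passed in the main fit, 2104 with the pseudocount of 10 and 3210 (20.7%) with DESeq2. The length and GC correction called 19.8% of the 15174 genes it tested, and the fit without those libraries called 28.9%. Of the 68 tested pathway genes, 20 passed with DESeq2, 23 without those libraries, and between 1 and 12 in the fits that dropped 1 library. With the length and GC correction 67 pathway genes were tested and 19 passed. The replicate number as a block gave 2 pathway genes (with 5.14% of all genes) and left STK25 at -1.12 with an adjusted p of 0.0684 (limma). Deviations of same-numbered libraries from their genotype correlated at -0.235, -0.40 and 0.169. Those of wild-type replicate 2 and knockout replicate 1, the libraries set apart, correlated at 0.448. With 3 libraries a genotype, these values cannot show whether the replicate numbers pair the samples. STK25 was between -1.24 and -1.05 in the fits that dropped 1 library and was -1.28 without the libraries set apart. Signs turned for 3 genes. PKIA was -0.021 with equal upper quartiles, -0.26 with equal totals, -0.14 with quantile normalization, 0.20 without wild-type replicate 2 and knockout replicate 1, and between -0.075 and 0.19 with 1 library left out. PRKAR2A was -0.23 with equal totals, -0.21 without wild-type replicate 2 and knockout replicate 1, and between -0.23 and 0.24 with 1 library left out. PRKACB was between -0.74 and 0.11 with 1 library left out. The cause of these turns was not tested. PDE4B, PDE1C and ADCY8 fell below the filter at a mean of 50 and have no value there. Low reads limit ADCY8, PDE1B and PDE1C in the knockout, while the 9 PKA genes had at least 212 reads in every library.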

Other observations

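The genes whose profile over the 6 libraries was most like that of PKIB were FRMD5, TDGF1, KCNIP2, SLC2A12 and KCNN2, out of 13035 with a mean of at least 50. Likeness was the root mean square difference of log2 values centred on each gene's mean, and it was 0.112, 0.135, 0.144, 0.174 and 0.189 in turn. KCNIP2, a subunit of cardiac potassium channels, had 2527 ± 184 normalized counts in the wild type and 13325 ± 2513 in the knockout (SD, n = 3 each). KCNN2, a calcium-activated potassium channel, had 541 ± 62.5 and 3379 ± 108 (SD, n = 3 each). These genes lie on chromosomes 15, 3, 10, 6 and 5, and were chosen for this likeness, so no test is given.

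Neither neighbour of PKIB passed the test. SERINC1, which is transcribed away from PKIB on the minus strand and whose 5' end lies within the first PKIB window printed above, had 5966, 4207 and 6954 normalized counts in the wild type and 2535, 6827 and 6223 in the knockout (log2 fold change -0.23, SE 0.40, limma adjusted p = 0.765). Its lowest library in each genotype was wild-type replicate 2 or knockout replicate 1, as for PRKACB. FABP7 on the other side had 7.65 to 26.7 normalized counts in the wild type and 0 to 8.90 in the knockout (limma adjusted p = 0.191). Within 5 Mb of PKIB 31 other genes were tested. Past the threshold, 3 of them were higher and 4 lower, beside 5.97% and 6.79% of all genes. The pseudogene PRKAR1AP1 had at most 1 read in any library, and PRKACG, a retroposed catalytic gene, was not among the genes tested.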
